A study of Homo sapiens with 22 samples.

Results

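Cluster 10 was the set of 807 cells, of 40021 in the treatment experiment, that carried cluster number 10 in the cell annotation deposited with the counts, where these cells were labelled primed. The cluster was taken as annotated, with no threshold of its own, and it was spread over all 8 libraries of the experiment. These libraries came from WM989, a BRAF-mutant human melanoma line from which a clonal derivative had been isolated, transduced with transcribed lineage barcodes and left without targeted therapy. All groups shared this line and these barcodes, and they comprised an untreated Control, TGFB1 (the cytokine transforming growth factor beta 1), TGFBRi (an inhibitor of the TGF-beta receptors) and PI3Ki (an inhibitor of phosphoinositide 3-kinase), each with replicates r1 and r2. The sample labels name 2 libraries per group, Mix and Primed, the cell annotation numbers them r1 and r2, and the sources used here do not tie the one to the other. Per the methods of the study, samples were sorted, expanded and divided over the 4 treatments in parallel as replicates. The cells of each library were read by single-cell RNA sequencing, in which every captured RNA molecule is counted once as a unique molecular identifier (UMI). A second primed cluster, number 4, held 3270 cells, and the remaining 35944 cells are called non-primed here. Both were used to show where cluster 10 differed.

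Primed melanoma cells are rare cells of an untreated population that survive when BRAF and MEK inhibitors are applied and go on to form resistant colonies. The state is passed on for several divisions and is then lost, so cells move into and out of it without a new mutation. Primed cells are known for low levels of the melanocyte programme driven by SOX10 and MITF and for high levels of receptors such as EGFR, AXL and NGFR, of matrix proteins and of AP-1 transcription factors. TGF-beta receptors signal through SMAD proteins, which induce matrix genes, and PI3K signals through AKT, which acts on growth, glucose use and FOXO factors.

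Cluster 10 was a small share of every library. In Control it made up 2.14% of 4152 cells in r1 (89 cells, exact 95% binomial interval 1.72 to 2.63) and 4.31% of 3692 cells in r2 (159 cells, 3.67 to 5.01). TGFBRi held 2.26% in r1 (118 cells) and 4.32% in r2 (271 cells), next to the Control values of the same replicate. TGFB1 held 0.535% in r1 (29 cells, 0.359 to 0.768) and 0.908% in r2 (51 cells, 0.677 to 1.19), and PI3Ki held 0.570% in r1 (22 cells, 0.357 to 0.861) and 1.18% in r2 (68 cells, 0.915 to 1.49). Both shares were below the Control share of the same replicate in TGFB1 and in PI3Ki, and r2 was above r1 in each of the 4 groups. The intervals cover counting error only. In TGFB1 nearly all primed cells lay elsewhere: cluster 4 held 1548 and 1706 cells there and between 0 and 6 in every other library.

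The values of cluster 10 rested on few cells, with 244365 UMIs summed in the smallest library (PI3Ki r1) and 3026603 in the largest (TGFBRi r2). Median UMIs per cell of the cluster ran from 9491 to 14481, which was 0.546 to 0.816 of the median over all cells of the same library. The median mitochondrial share was 7.56% to 9.52% against 10.3% to 11.4% in non-primed cells. The annotation put 61.3% of cluster 10 cells in G1 against 36.5% of non-primed cells. Cells called G2/M were a smaller share of cluster 10 in TGFB1 (6.90% and 7.84%, 2 and 4 cells) and in PI3Ki (9.09% and 14.7%, 2 and 10 cells) than in Control (23.6% and 20.8%) or TGFBRi (24.6% and 18.8%). The exact 95% intervals were wide, at 0.846 to 22.8 and 2.18 to 18.9 in TGFB1 and 1.12 to 29.2 and 7.28 to 25.4 in PI3Ki. They overlapped those of Control, at 15.2 to 33.8 and 14.7 to 27.9. Within the cluster, 5 cells had a droplet cell barcode (not a lineage barcode) that also occurred in another library. Of the marker lists for other cell types, 4 of 10 leukocyte genes, CD3E and TYROBP among them, were at 0 in all cluster 10 libraries, and the list summed to 0 to 7.25 UMIs scaled to a total of 1000000 (CPM) against 1.09 to 1.87 CPM in non-primed cells. Of 6 endothelial genes CDH5, TEK and CLDN5 were at 0, and the list summed to 1.62 to 16.9 CPM against 0.300 to 0.819, above non-primed cells in every library, with PECAM1 at up to 14.5 CPM. The fibroblast list (3 of 8 genes at 0) summed to 19.8 to 78.6 CPM against 20.8 to 35.3 CPM in non-primed cells, and the epithelial list (3 of 7 at 0) to 81.8 to 158 against 87.0 to 128. Their part in the results was not tested.

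The 9 marker genes used to describe the cluster were SRGN, NGFR, MTSS1, PRSS35, STC1, SCG2, TMEM158, MMP1 and IL24. Over the whole experiment each of them had a higher level in cluster 10 than in any of the other 12 clusters. Since the cells were clustered on their expression, this is a description and no test was made of it. Levels are CPM, with the UMIs of a gene summed over the cells of the cluster in a library.

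The cell-surface and membrane markers were prominent in Control. NGFR, the low-affinity nerve growth factor receptor (chr17:49495293-49515008, hg38, plus strand), was at 84.5 and 113 CPM in Control r1 and r2, at 85.3 and 160 in TGFBRi, at 19.6 and 27.6 in TGFB1 and at 16.4 and 42.7 in PI3Ki. Non-primed cells had at most 2.77 CPM of NGFR in Control. TMEM158, a membrane protein first described as induced by RAS (chr3:45224466-45226287, minus strand), stood at 624 and 713 CPM in Control, 457 and 740 in TGFBRi, 132 and 81.2 in TGFB1 and 254 and 441 in PI3Ki. For both genes the Control and TGFBRi libraries overlapped, and every TGFB1 and PI3Ki library was below every Control library. MTSS1, which binds membranes and actin, was lower in the same groups, with 48.3 and 60.7 CPM in Control, 82.0 and 68.1 in TGFBRi, where both libraries were above Control, 16.8 and 4.87 in TGFB1 and 20.5 and 20.3 in PI3Ki.

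The secreted markers included the glycoprotein hormone STC1 (stanniocalcin 1), at 323 and 260 CPM in Control, 237 and 425 in TGFBRi, 30.9 and 66.6 in TGFB1 and 65.5 and 133 in PI3Ki. The granin SCG2 read 124 and 132 CPM in Control, 181 and 132 in TGFBRi, 30.9 and 21.1 in TGFB1 and 77.8 and 132 in PI3Ki. SCG2 thus overlapped between Control and PI3Ki, whereas STC1 did not. SRGN, the granule proteoglycan serglycin, was at 134 and 216 CPM in Control, 138 and 229 in TGFBRi, 28.1 and 16.2 in TGFB1 and 57.3 and 56.6 in PI3Ki, and PRSS35, a serine protease family member, at 97.4 and 98.8, 72.7 and 98.1, 36.5 and 52.0, and 45 and 58.7 CPM in that order of groups.

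The values of the small libraries rested on few cells. In TGFB1 r1 a single cell gave between 36.4% (STC1) and 92.3% (IL24) of the UMIs of each of the 9 markers. In TGFB1 r2 this share was 53.7% for STC1, in PI3Ki r1 72.7% for PRSS35, and in Control r1 36.4% for PRSS35. MMP1, the interstitial collagenase, was at 126 and 308 CPM in Control, 435 and 97.5 in TGFB1, 89.99 and 162 in TGFBRi and 49.1 and 154 in PI3Ki. In TGFB1 r1 a single cell gave 60 of its 155 UMIs. IL24, a cytokine, was at 18.5 and 16.3 CPM in Control, 36.5 and 0 in TGFB1, 13.3 and 39.3 in TGFBRi and 0 and 3.2 in PI3Ki, and 12 of the 13 UMIs in TGFB1 r1 came from a single cell. MMP1 was seen in 40.5% and 48.4% of cluster 10 cells in Control before thinning and IL24 in 6.74% and 8.18%. The groups overlapped for both genes apart from IL24 in PI3Ki, which was below Control.

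**Figure D1:**
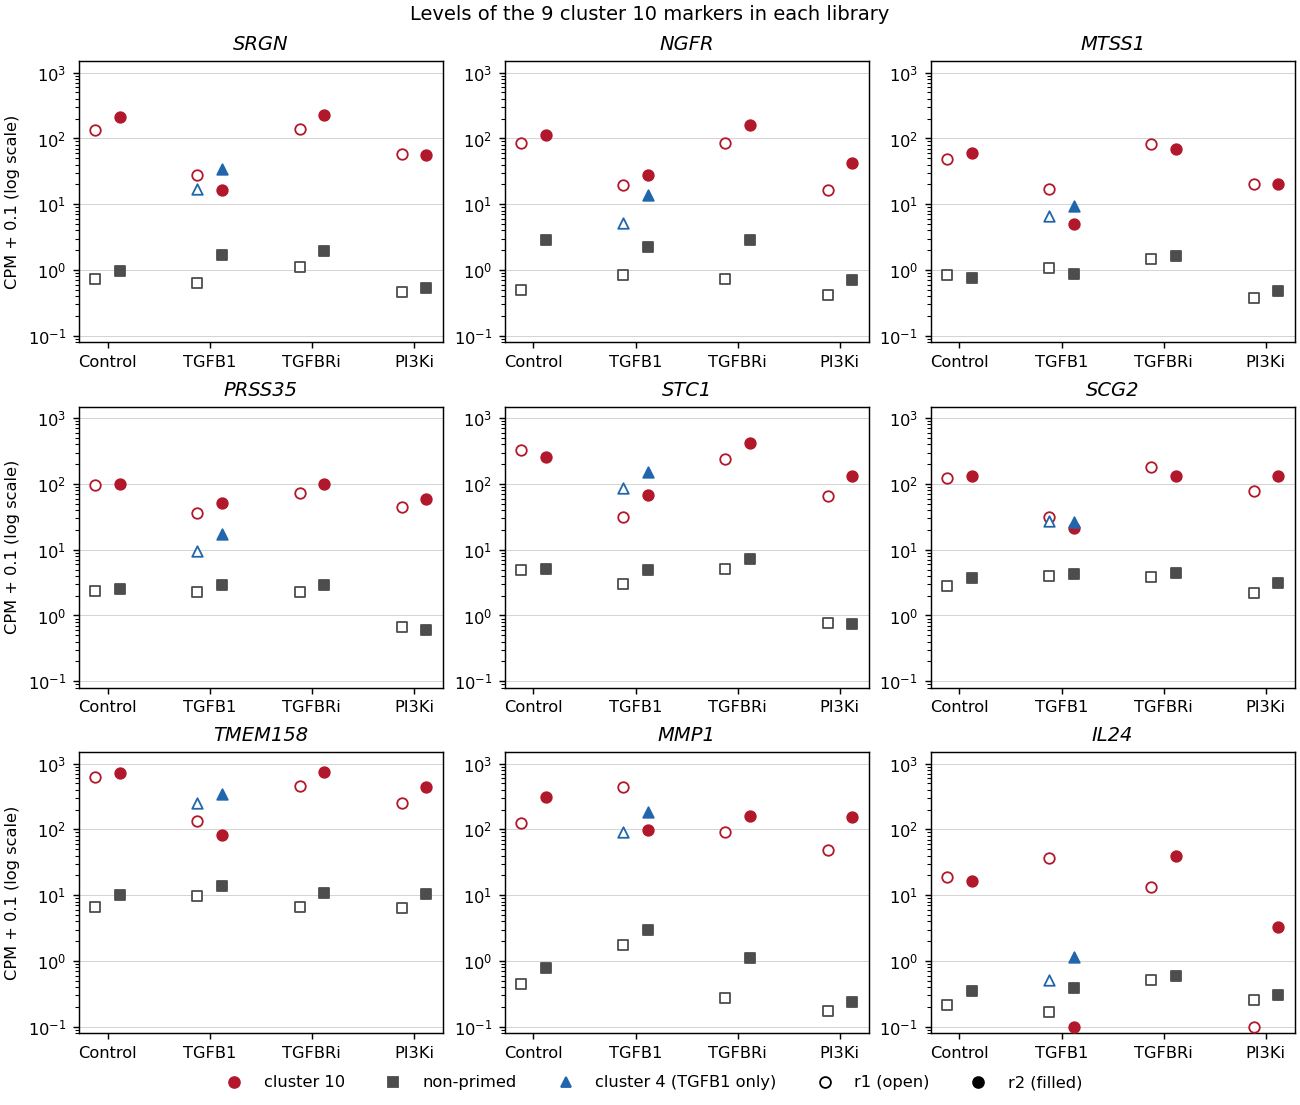
Level of the 9 marker genes (CPM plus 0.1, log axis) by group, with open symbols for r1 and filled symbols for r2; red circles are cluster 10, grey squares non-primed cells and blue triangles cluster 4, which is drawn for TGFB1 alone, and a level of 0 sits at 0.1. NGFR and TMEM158 in cluster 10 lay well above the non-primed cells in every group and were lower in TGFB1 and PI3Ki than in Control.

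The markers were seen in a larger share of cluster 10 cells in some libraries than in others. After each cell was thinned to 5000 UMIs, which left out 16 cells of the cluster and 17 non-primed cells, the median cluster 10 cell had a UMI for 3 of the 9 markers in both Control libraries and for 2 and 3 in TGFBRi. In TGFB1 the median was 1 and 0.5 markers, and in PI3Ki 1 and 2. At least 3 markers were seen in 56.8% and 59.6% of cluster 10 cells in Control, 48.7% and 68.4% in TGFBRi, 13.8% and 14% in TGFB1 and 19.0% and 36.4% in PI3Ki. Among non-primed cells, which served as the background, the share was 0.161%, and in cluster 4 of TGFB1 it was 10.3% and 20.9%. No marker was present in 11.4% and 12.8% of cluster 10 cells in Control and 15.7% and 7.52% in TGFBRi. This share was 48.3% and 50% in TGFB1 and 42.9% and 28.8% in PI3Ki, and 22.9% and 17.2% in cluster 4 of TGFB1.

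At this depth and with all libraries pooled, single markers were seen in a minority of cells, TMEM158 apart. Before thinning, SRGN was seen in 44.9% and 54.1% of cluster 10 cells in Control r1 and r2, and STC1 in 49.4% and 59.1%. Of 791 thinned cells in cluster 10, 62.5% had a UMI of TMEM158 against 4.15% of non-primed cells. STC1 was seen in 36% against 1.63%, SRGN in 36.2% against 0.448%, NGFR in 24.5% against 0.557% and IL24 in 4.93% against 0.106%. Over all libraries together, which differed in marker level, markers tended to be seen in the same cells: TMEM158 had a UMI in 87.1% of cells with SRGN and in 48.5% of those without, and STC1 in 59.1% and 23.0%. Of the 36 pairs of markers 32 ran this way and 4 the other way, by a few points: NGFR with PRSS35, PRSS35 with SCG2 and IL24, and SCG2 with IL24. Within single libraries of Control and TGFBRi 24 to 29 of the 36 pairs ran this way, and in TGFB1 r1, with 29 cells, 12. In Control r1 and r2 TMEM158 was seen in 86.2% and 89.2% of cells with SRGN and in 61.0% and 48.4% of those without. Over all libraries PRSS35 was seen in 19.6% of cells with NGFR and 23.8% of those without. Of EGFR, AXL and NGFR, the classical surface markers of the state, 65.6% of cluster 10 cells had none at this depth, 29.3% had 1, 4.93% had 2 and 0.126% had all 3. Each was seen in a minority of cells, so few cells would hold all 3 even with no relation between the genes. Whether they were seen together more or less often than that was not tested.

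The primed score deposited by the authors, a rank score over a gene set in each cell, was also lower in TGFB1 and PI3Ki. Its median in cluster 10 was 0.455 and 0.466 in Control and 0.439 and 0.443 in TGFBRi, against 0.411 and 0.438 in PI3Ki and 0.407 and 0.417 in TGFB1. Non-primed medians lay between 0.376 and 0.385. The share of cluster 10 cells above the 99th percentile of the non-primed cells of their own library was 85.4% and 81.1% in Control, 79.7% and 86.0% in TGFBRi, 59.1% and 72.1% in PI3Ki, and 13.8% (4 cells) and 9.80% (5 cells) in TGFB1. The limit itself was higher in TGFB1 (0.445 and 0.445) than in the other libraries (0.402 to 0.421). In TGFB1 the score of most cluster 10 cells was below that limit, while 66.5% and 74.4% of cluster 4 cells were above the same limits. In each replicate the share of cluster 10 cells with at least 3 markers and the median score were higher in Control and TGFBRi than in PI3Ki, and lowest in TGFB1. This is not an order of distance from non-primed cells. Those cells also had less of the 9 markers in PI3Ki (a sum of 10.7 and 16.4 CPM) than in TGFBRi (20.8 and 32.5 CPM). Cluster 10 cells of TGFB1 are called by the cluster number. The authors labelled the cluster primed from expression of such genes, so these values describe the label and do not test it.

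**Figure D2:**
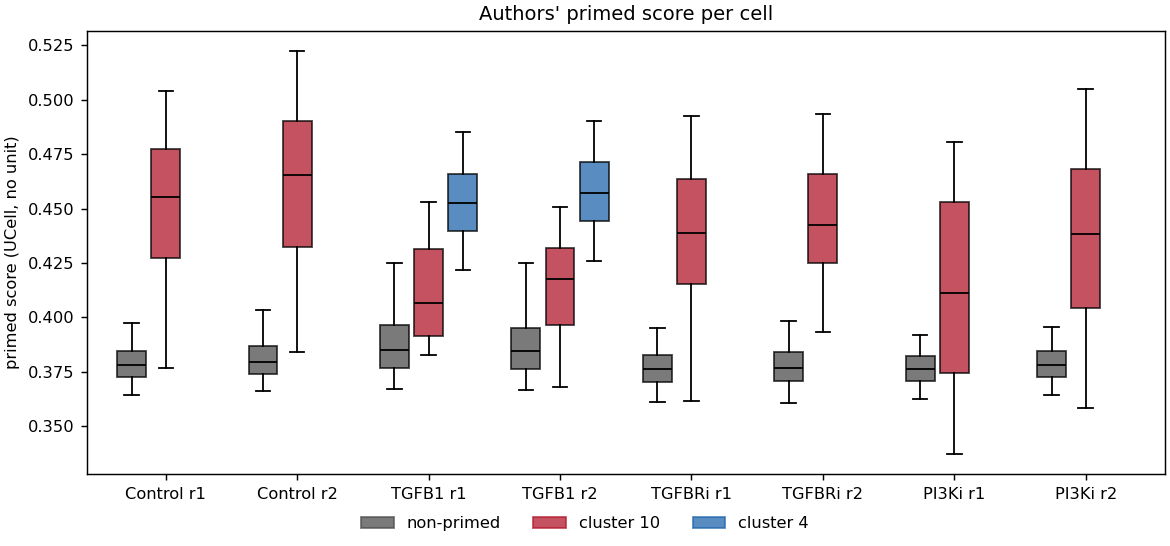
Primed score deposited by the authors (rank score, no unit) of each population by library; boxes span the quartiles with the median, and whiskers the 5th to 95th percentile of cells. Cluster 10 stands above the non-primed cells in Control, with medians of 0.455 and 0.466, and comes close to them in TGFB1, with medians of 0.407 and 0.417.

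Set beside the non-primed cells of the same Control library, cluster 10 had 382 of 6293 genes (6.07%) more than 2-fold higher in both replicates and 154 (2.45%) more than 2-fold lower, among genes with at least 20 CPM in the higher population. The ratios are a description, since the cells were grouped on these values. The 12 genes with the largest ratio were IGFN1, AQP1, SIRPB1, MMP1, SRGN, MYH15, IL11, SPOCK1, COL1A1, NRP1, NNMT and FSCN1. IL11, a cytokine of the interleukin 6 family, was at 96.6 and 123 CPM in cluster 10 against 0.143 and 0.900 in non-primed cells. AQP1, a water channel, was at 12.1 and 36 against 0.0261 and 0.0257, and FSCN1, the actin-bundling protein fascin, at 24.1 and 19.7 against 0.182 and 0.244. These genes were close to absent from non-primed cells. COL1A1, a chain of type I collagen, read 32.2 and 41.0 against 0.169 and 0.360 CPM.

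The 8 genes with the smallest ratio were led by pigment-cell genes: RLBP1, DCT, C2orf88, TRPM1, MLANA, LHFPL3-AS1, STK32A and PMEL. DCT, an enzyme of melanin synthesis, was at 61.2 and 41.8 CPM against 392 and 409. MLANA, a melanosome protein, stood at 218 and 206 against 1134 and 1254, and PMEL, which forms the fibrils of the melanosome, at 555 and 380 against 2574 and 2395. At 5000 UMIs MLANA was still seen in 34.1% and 28.8% of cluster 10 cells in Control against 97.5% and 96.7% of non-primed cells. Whether these UMIs came from the cells themselves was not tested. SOX10, the factor that drives this programme, was at 75.7 and 69.9 CPM against 136 and 135, and MITF at 133 and 130 against 326 and 374.

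Many measured members of the gene groups of the state were higher than in non-primed cells of Control. Of the members with at least 20 CPM, 10 of 11 primed-state genes, 13 of 18 matrix and adhesion genes, 6 of 6 AP-1 genes, 9 of 14 proteases and inhibitors, 8 of 14 TGF-beta genes, 7 of 15 genes of ERK output and 6 of 8 secreted factors were more than 2-fold higher in both replicates. In these lists 1 gene was more than 2-fold lower, LUM of the matrix list. Of 14 melanocyte genes, 7 were more than 2-fold lower and 0 were more than 2-fold higher. Over all 6293 genes at this level 6.07% were more than 2-fold higher and 2.45% more than 2-fold lower. The 20 CPM had to be reached in the higher population only. Members such as COL1A1 therefore entered through cluster 10 alone, and the counts are in part fixed by this filter. FN1, the matrix protein fibronectin, was at 3210 and 3545 CPM against 43.7 and 52.1. JUN, an AP-1 subunit, was at 86.9 and 61.9 CPM against 2.1 and 3.60, and FOSL1, another subunit, at 150 and 156 against 57.9 and 69.9. The 8 heat shock and dissociation genes summed to 2189 to 2922 CPM in cluster 10 over the 8 libraries and to 3346 to 4145 CPM in non-primed cells.

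The 100 genes with the largest Control ratio were then followed through the treated libraries. Their median ratio of cluster 10 to non-primed cells was 21.2 and 17.5 in Control, where they were chosen, 14 and 12.7 in TGFBRi and 14.7 and 16.4 in PI3Ki. In TGFB1 it was 4.45 and 3.63, with 83 and 76 of the 100 still over 2, while all 6293 genes had a median of 0.979 and 0.975 and 5.23% and 3.43% over 2. In PI3Ki 98 and 100 of the genes were over 2, against 10.9% and 7.98% of all genes. Cluster 4 of the TGFB1 libraries had a median ratio of 7.73 and 8.49 for the same 100 genes, higher than cluster 10 of the same libraries. Part of the smaller ratio in TGFB1 lay in the denominator, as for FN1, which was at 715 and 630 CPM in non-primed cells of TGFB1.

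The same 100 genes were looked up in cells that the ratio had not used. In a separate experiment on untreated WM989, in which per the methods 1 well held cells with high EGFR and NGFR protein, chosen by sorting, and another mixed cells, with 2843 primed and 9688 drug-susceptible cells, 94 of the genes reached 20 CPM, and 94 of 94 were higher in primed cells and 93 more than 2-fold higher in both captures, with a median ratio of 17.8. Per the methods of the study these captures came from the same wells divided at loading, so they are not independent replicates. Of all 6351 genes there, 43.1% were higher and 9.02% more than 2-fold higher. The 20 CPM had to be reached in the higher population only, so genes near absent from drug-susceptible cells entered through primed cells alone. The states were called on expression there too. The counts are thus in part fixed by the filter and the labels, and they are a description. The 3 primed clusters of that experiment gave medians of 24.1 (1588 cells), 13.7 (633 cells) and 20.1 (622 cells). MMP1 was at 2174 and 2178 CPM in those primed cells, and NGFR at 28.5 and 31.8 CPM. Set against cluster 10 of Control, MMP1 was higher and NGFR lower there, but the experiments were processed separately and no test was made.

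The pattern was smaller in WM983B, another BRAF-mutant melanoma line, with 731 primed and 718 drug-susceptible cells in a single sample. Of the 100 genes 52 reached 20 CPM, 48 were higher in its primed cells and 23 more than 2-fold higher, with a median ratio of 1.92. Of all 6856 genes 54.8% were higher and 1.30% more than 2-fold higher, with a median of 1.02. The filter on the higher population and labels called on expression limit these counts in the same way. NGFR was at 56.0 CPM in primed and 12.3 in drug-susceptible WM983B cells. STC1 was at 4.22 and 0.983 CPM, and MMP1 and PRSS35 had 0 counts in both.

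Promoters of cluster 10 genes were examined in chromatin accessibility profiles (ATAC-seq, in which a transposase cuts open DNA) of WM989 cells sorted for high EGFR and NGFR protein and of a marker-negative sort named Mix, with 3 libraries each. Of the 100 genes, 98 had an annotated start and 73 had a peak within 500 bases of it in all 6 libraries. At 23 of these 73 (31.5%) the 3 sorted libraries all exceeded the 3 Mix libraries and at 0 they were all below, whereas of 12944 starts over all genes 1433 (11.1%) were higher and 358 (2.77%) lower in this way. The median log2 difference was 0.34 for the 73 genes and 0.08 for all. A peak present in all sorted libraries and in no Mix library was found at 3 of the 98 starts, against 84 of 23301 (0.361%). The sorted cells were not cluster 10 cells, and NGFR and EGFR were the sorting markers themselves.

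The largest contrast among the genes drawn was at FSCN1, with a fold enrichment over background of 78.6, 63.3 and 51.6 in the sorted libraries and 4.03, 4.71 and 4.36 in Mix. At COL1A1 the values were 61.9, 54.8 and 62.0 against 41.2, 41.0 and 46.5, and at TMEM158 30.7, 26 and 33.3 against 25.1, 16.5 and 12.1. These 3 genes did not overlap between the sorts, and an exact two-sided permutation test of 3 against 3 libraries cannot go below the p of 0.1 that each of them gave. STC1 (1.48-fold, p = 0.2 by the exact permutation test), SCG2 (1.26-fold, p = 0.2), MTSS1 (1.32-fold, p = 0.6) and PRSS35 (0.989-fold, p = 0.7) overlapped. SRGN and IL24 had no peak within the window in any of the 6 libraries. Of 15 melanocyte genes with a peak in all libraries 3 had every sorted library below Mix, among them DCT and RLBP1 at 0.841 and 0.756 of its mean, 0 had every one above and 12 overlapped. Over all 12944 starts 2.77% were lower and 11.1% higher in this way.

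**Figure D3:**
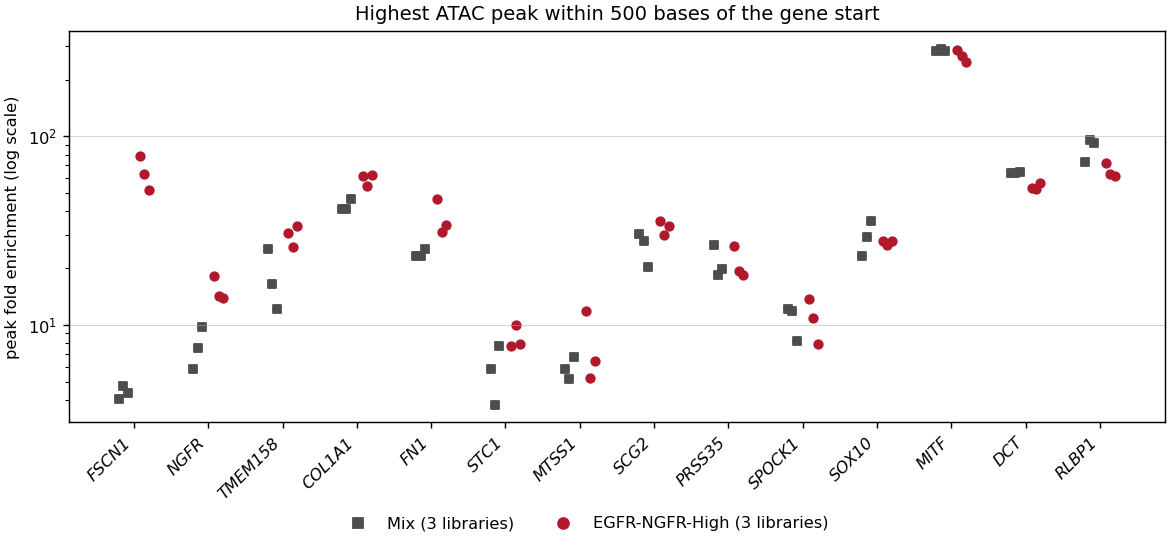
Highest peak within 500 bases of the start of each gene (fold enrichment over background, log axis) in 3 libraries sorted for EGFR and NGFR and 3 Mix libraries, 1 point a library. FSCN1 shows the widest gap, from at most 4.71 in Mix to at least 51.6 in the sorted cells, and PRSS35 and SPOCK1 show none.

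As examples of sequence at such starts, 3 promoters of the 100 genes are given, those with the largest ratios of the 4 that held a letter match and did not overlap between the sorts (the fourth, OLFML3, had a ratio of 1.19): the calcium-binding protein S100A3 (chr1:153549209-153549508, minus strand), the protease inhibitor TFPI2 (chr7:93890704-93891003, minus strand) and the matrix protein THBS1 (chr15:39580829-39581128, plus strand), from RefSeq on GRCh38.p14, 250 bases before to 50 after the start. The sequences do not show where within 500 bases of the start the peak lay. Capitals mark the AP-1 letters TGANTCA in the first 2 and the TEAD letters GGAATG in THBS1, searched on both strands.
S100A3: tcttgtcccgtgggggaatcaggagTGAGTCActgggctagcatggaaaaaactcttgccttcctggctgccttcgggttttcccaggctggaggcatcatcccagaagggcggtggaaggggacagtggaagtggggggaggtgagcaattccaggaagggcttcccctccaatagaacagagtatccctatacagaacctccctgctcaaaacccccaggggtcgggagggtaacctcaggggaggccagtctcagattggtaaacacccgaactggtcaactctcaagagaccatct
TFPI2: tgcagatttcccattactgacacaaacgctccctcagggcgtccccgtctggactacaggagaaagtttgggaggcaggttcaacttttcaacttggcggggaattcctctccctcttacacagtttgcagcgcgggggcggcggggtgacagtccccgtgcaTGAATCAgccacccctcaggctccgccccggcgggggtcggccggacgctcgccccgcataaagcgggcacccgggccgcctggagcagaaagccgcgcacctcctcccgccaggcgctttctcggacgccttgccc
THBS1: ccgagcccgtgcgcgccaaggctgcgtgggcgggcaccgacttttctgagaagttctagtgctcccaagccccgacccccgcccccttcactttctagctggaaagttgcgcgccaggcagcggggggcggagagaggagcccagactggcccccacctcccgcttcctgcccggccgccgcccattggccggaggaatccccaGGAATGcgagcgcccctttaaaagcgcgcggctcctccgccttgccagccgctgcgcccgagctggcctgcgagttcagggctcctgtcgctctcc
The match began 225 bases before the start in S100A3, 87 in TFPI2 and 46 in THBS1. Fold enrichment was 42.3, 26 and 22.3 at S100A3 in the sorted libraries against 7.17, 7.54 and 9.68 in Mix, a ratio of means of 3.71, and the ratio was 3.62 at THBS1 and 1.51 at TFPI2. Of the 100 genes 62 had a promoter in the RefSeq table. The AP-1 letters were in 6 of the 62 (9.68%) against 2120 of 27305 promoters in all (7.76%), and the TEAD letters in 6 (9.68%) against 3836 (14%), so that neither share stood far from that of all promoters. A match of letters is a description and not a site of binding. The promoters of the markers PRSS35, TMEM158 and IL24 held neither motif.

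The treatments were compared within cluster 10 by edgeR on UMIs summed per library, with replicate as a covariate and 9481 genes tested at an adjusted p of 0.05. Each treatment was set against the same Control libraries, so the 3 comparisons are not independent of each other. Membership of the cluster was set from expression, so a cell that had moved far would no longer be counted in it, and a change in the mix of cells and a change in the RNA of each cell cannot be told apart. With 2 parallel replicates of 1 clonal line, p-values rest on a spread between these libraries that edgeR estimated largely across genes. The fits had 3 or 4 residual degrees of freedom, so p-values do not measure the spread of each gene by itself.

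With all libraries TGFB1 gave the largest number of calls in cluster 10: 99 genes rose (1.04% of those tested) and 158 fell (1.67%). This order rested on TGFB1 r2, without which PI3Ki had more calls. The falls included most markers, COL1A1 and FN1 and 9 of 18 G2/M genes, and the rises 8 of 14 melanocyte genes. Of the 9 markers 7 fell and 0 rose, with a median log2 change of -2.37 over the list against 0.00 over all genes. SRGN fell by 3.13 ± 0.31 on the log2 scale (SE, adjusted p = 2.15e-07), TMEM158 by 2.73 ± 0.25 (adjusted p = 5.42e-08) and STC1 by 2.57 ± 0.30 (adjusted p = 2.37e-06). SCG2 fell by 2.37 and NGFR by 2.1. MTSS1 (-2.57) lost its call without TGFB1 r2, and PRSS35 (-1.13) without Control r1, TGFB1 r1 or TGFB1 r2 and under DESeq2. MMP1 (0.28 ± 0.41) and IL24 (-0.32 ± 0.72) did not pass. These genes had defined the cluster, and the fall was seen in cells still assigned to it.

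Matrix genes moved both ways. Of 18 tested members of the matrix and adhesion list, 7 fell and 2 rose, with a median of -0.67. FN1 was at 3210 and 3545 CPM in Control and 1670 and 1269 in TGFB1 (-1.20 ± 0.19, adjusted p = 0.000326), and COL1A1 at 32.2 and 41.0 against 11.2 and 1.62 (-2.85 ± 0.54, adjusted p = 0.00189). The collagen VI chains COL6A1 and COL6A2 fell by 1.23 and 1.36, and the integrin subunits ITGA2 and ITGA3 by 2.69 and 1.37, and the hyaluronan receptor CD44 by 0.78. The proteoglycan LUM (lumican) rose by 1.44 and MGP (matrix Gla protein) by 1.29, the latter from 117 and 308 CPM to 671 and 479, with 44.8% of its UMIs in Control r1 in a single cell. FN1, COL6A1, COL6A2 and ITGA3 kept their calls without each library, COL1A1, ITGA2 and CD44 lost theirs without TGFB1 r2, CD44 also without Control r2, MGP without Control r1 and LUM without any one Control or TGFB1 library. AEBP1, a collagen-binding protein outside the list, rose from 122 and 133 CPM to 472 and 543 (1.99 ± 0.17, adjusted p = 4.78e-08).

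Of the TGF-beta target list 17 members were tested, of which 2 rose and 2 fell. PMEPA1, a negative feedback regulator of SMAD signalling, went from 63.6 and 72.0 CPM to 166 and 161 (1.25 ± 0.21), and CCN2 (connective tissue growth factor) from 15.3 and 15.5 to 36.5 and 47.1 (1.47 ± 0.39), whereas the 2 that fell were COL1A1 and FN1. PMEPA1 lost its call without Control r2, and CCN2 without TGFB1 r2 or either Control library and without the replicate covariate. Of 14 proteases and inhibitors 2 rose, the plasminogen activator PLAT (1.60) and the inhibitor SERPINE2 (0.68), calls lost without TGFB1 r2 or Control r2 (PLAT) and without TGFB1 r1 or Control r1 (SERPINE2), and 2 fell, the metalloproteinase inhibitor TIMP3 (-1.71, from 1750 and 1446 CPM to 536 and 450) and PRSS35. Of 14 secreted factors 4 fell, among them VEGFA (-1.33), the vascular growth factor, with 130 and 149 CPM in Control and 70.2 and 47.1 in TGFB1. The primed-state list had 1 rise (SERPINE2) and 4 falls in 12, which besides FN1, COL1A1 and NGFR included NT5E, the ecto-enzyme CD73 (-1.12). NT5E and VEGFA lost their calls without TGFB1 r2, and NT5E also without Control r1.

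All 14 tested melanocyte genes had positive values in cluster 10 of TGFB1 against Control, with a median of 1.07. Past the threshold 8 of the 14 rose and 0 fell. PMEL was at 932 and 1540 CPM against 555 and 380 in Control (1.44 ± 0.23, adjusted p = 0.000326), and MIA, a secreted melanoma protein, at 486 and 767 against 211 and 219 (1.54 ± 0.19, adjusted p = 6.97e-06). SOX10 (0.83), MLANA (0.83), S100B (0.82), ERBB3 (1.11) and TYR (1.33) also passed, and these 5 lost their calls when TGFB1 r2 was left out. All of them but TYR were also lost without Control r2, SOX10, MLANA and TYR without Control r1, PMEL, SOX10, ERBB3 and TYR under DESeq2, and SOX10, S100B, ERBB3 and TYR in G1 cells alone, so that MIA alone kept its call under every alternative. TGFB1 r2 was the higher of the replicates for each of these genes. Of these 8 genes PMEL and MLANA stayed below the non-primed cells of the same libraries, at 2261 and 2368 and at 822 and 964 CPM. The others are not set against those cells here, and they need not have stayed below. MIA in TGFB1 r2 was above its level in every other cluster over the whole experiment, the highest of which was 630 CPM in cluster 6.

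Of the genes of G2 and M phase 9 of 18 fell, with 0 rising and a median of -1.05. TOP2A, a topoisomerase of dividing cells, was at 80.5 and 97.9 CPM in Control and 22.5 and 29.2 in TGFB1 (-1.77), MKI67 fell by 1.25 and CENPF by 1.07. The share of cells called G2/M moved with these genes, as given above. With G1 cells alone 7 of the 9 calls were lost and TOP2A, MKI67, NUSAP1, AURKA and UBE2C had values of the opposite sign (0.99, 0.01, 0.40, 0.73 and 1.72). TOP2A, MKI67 and CENPF kept their calls without each library. The S phase list had 0 calls of 18 by edgeR, with 2 members at an unadjusted p under 0.05.

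Of 17 members of ERK output the transcription factors EGR1 (-1.81) and ETV1 (-1.08) and the cyclin CCND1 (-0.81) fell, and of 10 AP-1 genes FOS fell (-1.42), from 123 and 113 CPM to 39.3 and 47.1. Of 14 hypoxia and glycolysis genes 4 fell, with BNIP3 at -0.99, and each of the 4 was lost without at least 1 library. INSIG1, a brake on sterol synthesis, fell by 1.5, the only call among 18 sterol genes, and TXNIP, a thioredoxin-binding protein lowered by growth signalling, rose by 1.23. The 3 ERK output calls were lost without TGFB1 r2 and that of TXNIP without TGFB1 r1, while those of FOS and INSIG1 were kept without each library.

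The genes with the largest rises at a mean of 10 CPM or more were PHACTR1 (2.38), APOD (2.29), CHL1 (2.19), PMP2 (2.04), OSGIN1 (2.03), AEBP1, AUNIP (1.91) and EEF1AKMT4 (1.90). APOD, the lipid carrier apolipoprotein D, was at 118 and 213 CPM in TGFB1 against 38.6 and 33.5 in Control. The largest falls were SNED1, SRGN, DPYD, CEMIP, COL1A1, LUCAT1, TSNARE1 and TMEM158. SNED1, a matrix protein, had 37 UMIs in Control and 0 in TGFB1, which makes it at least 3.3-fold lower against a floor of 3 counts over the group. DPYD, an enzyme of pyrimidine breakdown, had 66 and 2 UMIs (8.83-fold lower, exact 95% counting interval 2.35 to 74.4), and TSNARE1 80 and 3 (7.13-fold, 2.36 to 35.3). CEMIP, a hyaluronan-degrading protein, went from 41.9 and 50.6 CPM to 0 and 9.75. Of these 16 genes AEBP1, SRGN, CEMIP and TMEM158 kept their calls without each library, and SNED1 lost its call without the replicate covariate. Without TGFB1 r2 the TGFB1 comparison held 97 calls in place of 257, and without Control r2 153.

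**Figure D4:**
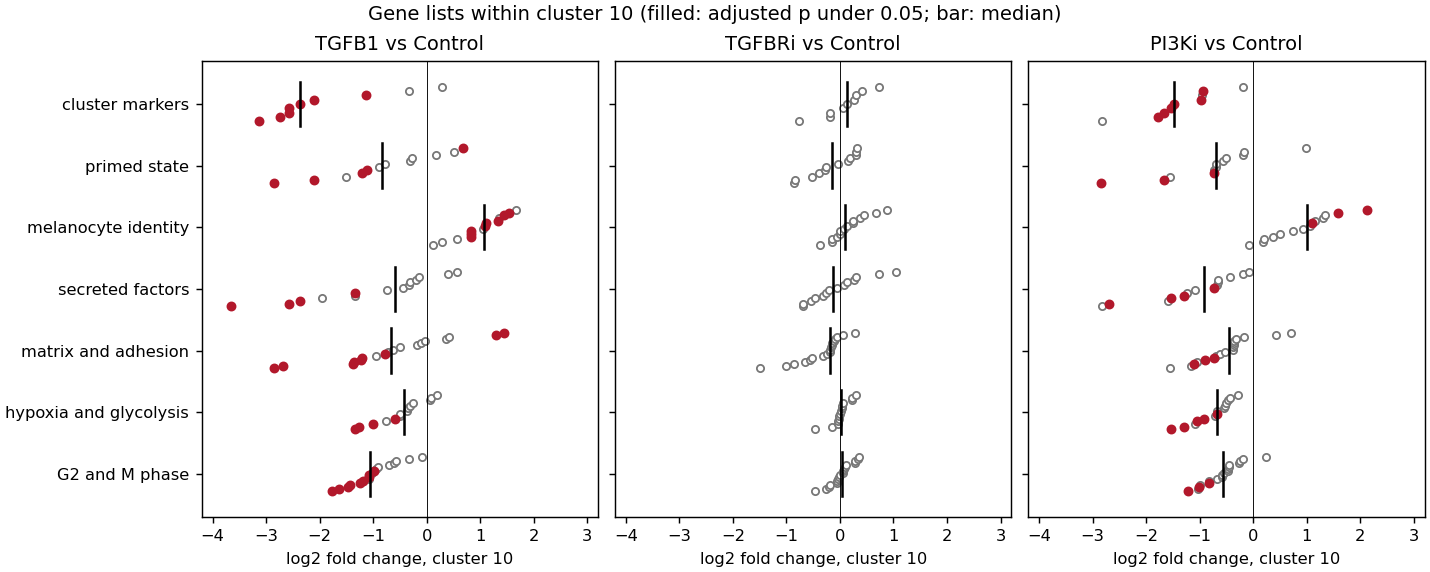
Log2 change in cluster 10 against Control for the tested members of 7 gene lists in each treatment; 1 point a gene, filled where the adjusted p was under 0.05, with a bar at the median. The markers lie low in TGFB1 (median -2.37) and PI3Ki (-1.48) and around 0 in TGFBRi (0.13), and the melanocyte genes lie high in TGFB1 (1.07) and PI3Ki (1.0).

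The change from Control to TGFB1 among cells assigned to cluster 10 differed from that in non-primed cells. Of 17951 genes tested for the difference in 1 model over both populations, 498 passed (2.77%), 180 with a more positive and 318 with a more negative response in cluster 10. Genes named for a difference are those at either end whose level averaged 10 CPM or more across both populations. Non-primed cells by themselves had 1533 rises (8.56% of 17914 genes) and 1132 falls (6.32%). FN1 rose in non-primed cells from 43.7 and 52.1 CPM to 715 and 630 and fell in cluster 10, a difference of -5.01 ± 0.15 on the log2 scale (adjusted p = 1.57e-244). COL1A1 (-6.07 ± 0.63), SPOCK1, a testican proteoglycan (-4.77 ± 0.59), and IGFN1 (-4.76 ± 0.61) had the same opposed directions in both replicates. These 4 kept their calls without each library. In these genes the populations started far apart in Control and came closer in TGFB1. All 4 were also lower in cluster 10 than in cluster 4 of the same TGFB1 libraries, where FN1 was at 8597 and 9069 CPM. Membership was set from expression, so a response of the cells cannot be told apart from a change in which cells were assigned to cluster 10. PMEPA1 rose in both populations and by less in cluster 10 (1.25 against 4.93, difference -3.62). AEBP1 rose by 1.99 in cluster 10 and 1.73 in non-primed cells, and the difference of 0.28 ± 0.16 did not pass (adjusted p = 0.58).

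At the other end, CST1, a cystatin with close paralogs among which reads may be split (2.83), OSGIN1 (2.55), CHL1, a neural adhesion molecule (2.21), and AUNIP (2.07) responded more positively in cluster 10, each of which lost its call without TGFB1 r1 or TGFB1 r2. OSGIN1 was at 36.5 and 13.0 CPM in cluster 10 of TGFB1 against 6.44 and 4.60 in Control, and at 8.14 and 9.40 against 12.2 and 12.4 in non-primed cells. MLANA fell in non-primed cells (-0.44) and rose in cluster 10, a difference of 1.25 (adjusted p = 1.5e-11). Of the markers, TMEM158 rose in non-primed cells by 0.50 and fell in cluster 10, a difference of -3.25. The 498 calls became 317 without Control r1, 254 without Control r2 and 232 without TGFB1 r2.

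Within the TGFB1 libraries cluster 10 was unlike cluster 4. Of 6283 genes 239 were more than 2-fold higher (3.8%) and 227 more than 2-fold lower (3.61%) in cluster 10 in both replicates, again as a description of clusters defined by expression. The 8 genes with the largest ratio were APOD, SERPINA3, A2M, FGFBP2, MGP, HRK, CHL1 and LAMA4. APOD was 43.1-fold and 78.4-fold higher, MGP 19.6-fold and 10.5-fold, and A2M, a protease-trapping plasma protein, was at 42.1 and 74.7 CPM against 2.99 and 2.99. The 8 with the smallest were COL1A1, LMCD1, COL5A2, SPOCK1, UACA, SCG5, PMEPA1 and AQP1. COL1A1 read 11.2 and 1.62 CPM in cluster 10 and 167 and 182 in cluster 4, PMEPA1 166 and 161 against 1132 and 1173, and FN1 1670 and 1269 against 8597 and 9069.

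The markers of cluster 10 were split between the clusters. NGFR was at 19.6 and 27.6 CPM in cluster 10 of TGFB1 and at 5.0 and 13.9 in cluster 4, and PRSS35 at 36.5 and 52.0 against 9.31 and 17.4. STC1 (30.9 and 66.6 against 87.6 and 154) and TMEM158 (132 and 81.2 against 249 and 341) were lower in cluster 10. Melanocyte genes were lower still in cluster 4: over the whole experiment SOX10 was seen in 10.5% of thinned cluster 4 cells, 30.3% of cluster 10 cells and 49.4% of non-primed cells.

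Few genes passed the threshold in cluster 10 of TGFBRi. No gene rose (0.0%) and 5 fell (0.0527%) by edgeR, with 511 of 9481 genes at an unadjusted p under 0.05 and 0 rises by DESeq2. PMEPA1 fell from 63.6 and 72.0 CPM to 7.33 and 11.9 (-2.74 ± 0.25, adjusted p = 1.79e-07), and in non-primed cells, where it started at 3.58 and 4.45 CPM, by 2.23. RGS2, a regulator of G protein signalling, went from 126 and 71.1 CPM to 40.7 and 25.8 (-1.55), HTRA1, a secreted serine protease, from 43.5 and 57.3 to 14 and 21.1 (-1.49), IGFBP7, which binds insulin-like growth factors, from 201 and 395 to 100 and 126 (-1.38) and SPP1, the matrix protein osteopontin, from 146 and 198 to 64.7 and 75.7 (-1.29). All 5 were lower in each TGFBRi library than in each Control library. HTRA1, IGFBP7 and SPP1 lost their calls without Control r2, and HTRA1 also without either TGFBRi library and under DESeq2. With 22 cells drawn from each library none of the 5 calls was left, although the values had the same sign. The 5 calls became 8 without Control r1 or TGFBRi r2 and 18 without either TGFB1 library.

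None of the 9 markers passed in TGFBRi, and 2 had an unadjusted p under 0.05, with a list median of 0.13. Of the 17 tested TGF-beta genes PMEPA1 alone passed, 13 had negative values and the median was -0.58, against 0.00 over all genes. Other lists leaned to one side with 0 calls. All 14 tested proteases and inhibitors had negative values, as did 16 of 18 matrix genes, with 2 positive. In the S phase list 17 of 18 values were positive and 1 was negative. Over all genes 4748 values were positive and 4733 negative. The response of cluster 10 differed from that of non-primed cells for 26 of 17951 genes (0.145%), 8 of them more positive. Non-primed cells had 218 rises (1.22%) and 285 falls (1.59%). ID1 and ID3, inhibitors of basic helix-loop-helix factors, fell in non-primed cells, ID1 from 11.5 and 14.2 CPM to 2.67 and 2.60. In cluster 10 ID1 went from 18.5 and 23.4 CPM to 14.7 and 13.9, a difference of the responses of 1.74 ± 0.31. ID3 went from 27.4 and 39.3 CPM to 24.0 and 6.94 in cluster 10 (-1.40, not past the threshold) and changed by -3.02 in non-primed cells, a difference of 1.67 ± 0.28. The difference of ID1 lost its call without TGFBRi r2 and that of ID3 without TGFBRi r1. RGS2 and HTRA1 fell in cluster 10 and had changes of -0.08 and 0.02 in non-primed cells, with differences of -1.44 and -1.46 that were lost without Control r1 or TGFBRi r2 for RGS2 and without Control r2 for HTRA1. With DESeq2 none of these 4 differences passed. The 26 calls became 11 without Control r1 and 12 without either TGFBRi library.

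PI3Ki was called on 30 rises (0.316%) and 74 falls (0.781%) in cluster 10, which held 22 and 68 cells in PI3Ki. Without PI3Ki r2 there were 35 rises and 22 falls, and with equal cell numbers 10 of each. Of the 9 markers 6 fell, with a median of -1.48. SRGN fell by 1.78 ± 0.25 (adjusted p = 0.00013), NGFR by 1.67 ± 0.27 (adjusted p = 0.000952) and STC1 by 1.54 ± 0.26 (adjusted p = 0.00154). MTSS1 (-1.48), TMEM158 (-0.98) and PRSS35 (-0.93) also passed, while SCG2 (-0.19), MMP1 (-0.95) and IL24 did not. Each of the 6 calls was lost without some single library, 4 of them without PI3Ki r1 and 4 without PI3Ki r2, and those of TMEM158 and PRSS35 also without the replicate covariate. IL24 had 62 UMIs in Control and 3 in PI3Ki (6.72-fold lower, exact 95% counting interval 2.20 to 33.5). Over all genes the 104 calls became 21 without PI3Ki r1, 57 without PI3Ki r2, 36 without Control r1, 53 without Control r2, and 169 and 184 without TGFB1 r1 and r2.

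All 14 tested secreted factors and all 14 tested hypoxia and glycolysis genes had negative values in PI3Ki, and a minority of them passed. Of 14 secreted factors 4 fell and 0 rose, with a median of -0.92: besides STC1 these were VEGFA (-1.29), the neuropeptide precursor VGF (-0.74) and IL1B, which had 52 UMIs in Control and 3 in PI3Ki (5.64-fold lower, 1.83 to 28.2). All 4 calls were lost without some library, VEGFA without Control r2 or PI3Ki r2 and VGF and IL1B without either PI3Ki library among others. Of 14 hypoxia and glycolysis genes 5 fell and 0 rose, with a median of -0.68. BNIP3, a mitochondrial protein of hypoxia and mitophagy, went from 479 and 481 CPM to 110 and 210 (-1.53 ± 0.20, adjusted p = 4.83e-05). LDHA, lactate dehydrogenase, went from 914 and 1030 to 360 and 577 (-1.06), and PGK1 fell by 0.93. BNIP3 alone of these kept its call without each library. Non-primed cells shared this direction, with 13 of 15 tested members falling and a median of -0.66. BNIP3 fell there by 1.43, and its difference of -0.11 did not pass.

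Of 14 tested melanocyte genes 13 had positive values and 1 a negative one, with a median of 1.0. Past the threshold 3 rose and 0 fell. DCT was at 319 and 172 CPM in PI3Ki against 61.2 and 41.8 in Control (2.12 ± 0.21, adjusted p = 8.48e-07). PMEL rose to 1940 and 1036 CPM (1.57) and MLANA to 614 and 380 (1.1). The call on DCT was kept under every alternative, while PMEL and MLANA lost theirs without PI3Ki r1. Of 18 matrix genes 3 fell, the integrin subunits ITGA3 (-1.1) and ITGB1 (-0.90) and CD44 (-0.74), and of 18 G2/M genes 3 fell, with AURKA at -1.21 and at 0.25 in G1 cells alone. TIMP3 fell by 1.0 and the early response gene IER3 by 0.86. ID3, 1 of 17 TGF-beta genes tested, rose from 27.4 and 39.3 CPM to 135 and 93.9 (1.58 ± 0.29). The calls on ITGA3, ITGB1, CD44, AURKA and ID3 were lost without PI3Ki r1, PI3Ki r2 or Control r1, those on CD44 and AURKA also without Control r2 and under DESeq2, and those on TIMP3 and IER3 without PI3Ki r1 or Control r1. All 7 were lost with equal cell numbers, and all but TIMP3 in G1 cells alone.

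The largest rises in PI3Ki were LINC01531 (3.64), DCT, LHFPL3-AS1 (2.04), SNED1 (1.97), BAAT (1.83), HMCN1 (1.72), ID3 and PMEL. LINC01531, a long noncoding RNA, went from 3.22 and 3.35 CPM to 90.03 and 25.6, with 9 of its 22 UMIs in PI3Ki r1 in a single cell. LHFPL3-AS1 is antisense to another gene, and the strand setting of the counting is not given in the sources used here. The largest falls were MYH15, AXL, MIR210HG, TFPI2, IL11, ENPP1, BST2 and SRGN. MYH15, a myosin heavy chain, had 84 UMIs in Control and 1 in PI3Ki (27.3-fold lower, 4.77 to 1090). AXL, a receptor tyrosine kinase of the primed state, went from 19.3 and 26.4 CPM to 4.09 and 3.2. ENPP1, an ecto-enzyme that makes pyrophosphate, was at 204 and 207 CPM in Control and 49.1 and 49.1 in PI3Ki (-2.06 ± 0.24, adjusted p = 1.03e-05), a call kept under every alternative. Of these 16 genes DCT, LHFPL3-AS1 and ENPP1 kept their calls without each library, and the others lost theirs without PI3Ki r1 or PI3Ki r2.

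The PI3Ki response differed between cluster 10 and non-primed cells for 99 of 17951 genes (0.552%), 32 more positive and 67 more negative. Non-primed cells had 1056 rises (5.89%) and 1114 falls (6.22%). DCT fell in non-primed cells, from 392 and 409 CPM to 236 and 259, and rose in cluster 10, a difference of 2.63 ± 0.19 (adjusted p = 1.62e-37). LINC01531 (2.96), LINC02249 (2.15) and the chloride channel BEST1 (1.80) were also more positive. IL11 (-2.75), the LIM protein FHL3 (-2.27), the antiviral tether BST2 (-2.24) and TFPI2 (-1.79) were more negative. The value of IL11 was 0.77 without PI3Ki r2, and its level in non-primed cells was at most 1.09 CPM in Control and PI3Ki. STC1 and PRSS35 fell in both populations, in non-primed cells from 4.81 and 4.99 CPM to 0.658 and 0.642 and from 2.29 and 2.42 to 0.572 and 0.494, and the difference passed for STC1 (1.37, adjusted p = 8.4e-06, lost without PI3Ki r2) and not for PRSS35 (1.15, adjusted p = 0.11). The 99 calls became 34 without either Control library, 52 without PI3Ki r1 and 154 without PI3Ki r2.

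**Figure D5:**
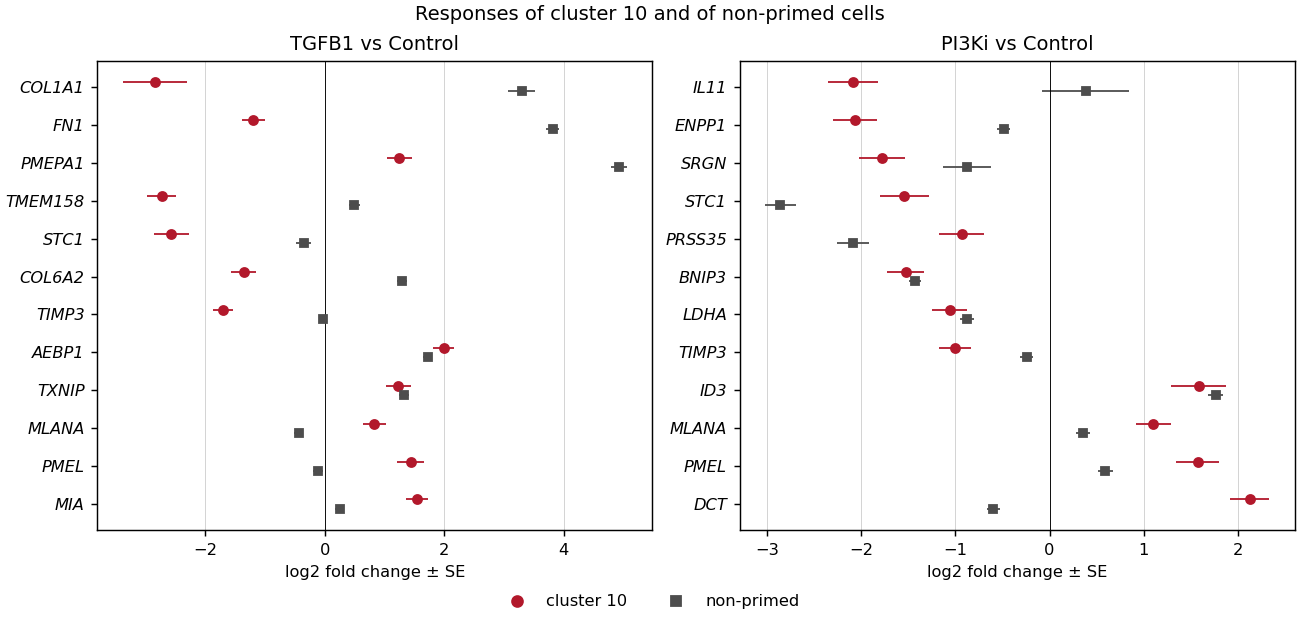
Log2 change against Control (± SE) in cluster 10 and in non-primed cells for 12 genes in TGFB1 and 12 in PI3Ki. COL1A1 and FN1 lie on opposite sides of 0 in TGFB1, at -2.85 and -1.20 in cluster 10 and 3.29 and 3.81 in non-primed cells, and DCT does so in PI3Ki, at 2.12 and -0.59.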

How the data were processed

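The single-cell libraries of the treatment experiment were deposited as UMI counts of 36601 genes, with the cell annotation of the authors, which gave the cluster, a mitochondrial percent, a cell cycle phase and a primed score per cell. Per the labels and the study's methods, Cell Ranger made the counts and the authors filtered cells and clustered them with Seurat; the Cell Ranger version is not given in the sources used here. ATAC-seq reads were aligned by the authors with Bowtie2 2.3.4.1 to hg38, processed with SAMtools 1.1 and called as peaks per library with MACS2 2.1.1.20160309, and the deposited peaks carry a fold enrichment ratio and a −log10 q-value. The other 6 ATAC-seq libraries, sorted for EGFR or NGFR alone, were not used here. No doublet caller was run, and the 5% of cells with the most UMIs were left out as an alternative.

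From the deposited counts, UMIs were summed per library over cluster 10, cluster 4 and non-primed cells, in libraries with at least 20 cells of the cluster. Cluster 10 sums held 244365 to 3026603 UMIs per library, and counting intervals are exact 95% binomial intervals. Treatments were compared with edgeR 4.0.16 (quasi-likelihood test, TMM, filterByExpr, treatment plus replicate, all 8 libraries, Benjamini-Hochberg adjustment at 0.05) in R 4.3.3, and the difference of responses with a library block over both populations. The fits had 3 residual degrees of freedom for each population and 4 for the difference. Replicate was kept as a covariate because the study's methods split the same wells over the treated plates. The r2 minus r1 deviations of the treatments correlated at 0.236 to 0.346 in non-primed cells and at -0.004 to 0.11 in cluster 10. On simulated counts of the TGFB1 comparison with 9481 genes and 200 changed, 76.5% of 4-fold and 13.3% of 2-fold changes were recovered, with 5 false calls. The simulated spread between libraries was wider than the common one fitted in cluster 10 (coefficient of variation 0.109). These shares therefore hold for the simulated spread only.

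The members and gene lists were chosen with earlier results of these data known. Named genes were the markers, the 12 largest and 8 smallest ratios in Control at 20 CPM or more, ranked by the replicate nearest to 1, the 8 at either end for cluster 4, the 8 largest rises and falls per treatment at a mean of 10 CPM or more with the same sign in both replicates, up to 4 members of each list by p and 4 genes at either end of each difference. Other genes of the lists that passed, and PMEPA1, AEBP1 and MLANA where populations are compared, were named after their values were seen. One further list member that passed is not reported here. Accessibility was the highest peak within 500 bases of a gene start. Alternatives were DESeq2 1.42.0, upper quartile scaling, no filter, no replicate block, G1 cells alone, 22 cells from each library, 50 CPM, the 50000 highest-ranked peaks and each library left out. Python 3.11.15, numpy 2.4.6, pandas 2.3.3, scipy 1.17.1 and matplotlib 3.10.9 were used.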

Additional observations from a re-analysis of the deposited data

Results flagged for a closer look

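Differences between the responses of cluster 10 and of non-primed cells to the same treatment were tested as an interaction in edgeR, and those past the threshold are listed here as values, on the log2 scale, as the response in cluster 10 minus that in non-primed cells. Cluster membership was set from expression, so a response of the cells cannot be told apart from a change in which cells were assigned. The named genes are those at either end among genes whose level averaged 10 CPM or more across both populations, so that less abundant genes with larger values, such as ATF3 in TGFBRi (-2.11), are not among them. For TGFB1 498 genes passed. The named genes among them were COL1A1 (-6.07), FN1 (-5.01), SPOCK1 (-4.77) and IGFN1 (-4.76) with a more negative response in cluster 10, and CST1 (2.83), OSGIN1 (2.55), CHL1 (2.21) and AUNIP (2.07) with a more positive one. For TGFBRi 26 genes passed, with IGFN1 (-2.75), BGN (-1.53), HTRA1 (-1.46) and RGS2 (-1.44) at one end and ID1 (1.74), ID3 (1.67), COL9A3 (1.31) and CCN2 (1.25) at the other. IGFN1 and BGN rose in non-primed cells of TGFBRi from levels under 1 CPM and had values near 0 or of either sign in cluster 10. For PI3Ki 99 genes passed, with IL11 (-2.75), FHL3 (-2.27), BST2 (-2.24) and TFPI2 (-1.79) at one end and LINC01531 (2.96), DCT (2.63), LINC02249 (2.15) and BEST1 (1.80) at the other. FHL3 and BST2 had 0 UMIs in cluster 10 of PI3Ki r1, and LINC02249 stood at 15.3 and 10.9 CPM in Control and 40.9 and 29.9 in PI3Ki.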

How the results depend on the processing

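Calls in cluster 10 depended on the number of cells and on single libraries, and the cause of each move was not tested. For TGFB1 the 257 calls became 110 with DESeq2, 108 in G1 cells alone and 51 with 22 cells from each library, and 97 to 269 with each library left out. For TGFBRi the 5 calls became 27 with no filter, 8 in G1 cells and 0 with equal cell numbers, and 5 to 18 with a library left out. For PI3Ki the 104 calls became 63 with DESeq2, 173 with no filter, 20 in G1 cells, 20 with equal cell numbers, 64 without the 5% of cells with the most UMIs and 21 to 184 with a library left out. The differences of the responses went from 498 to 234 (DESeq2), 297 (G1) and 232 to 550 (a library left out) for TGFB1, from 26 to 2, 11 and 11 to 34 for TGFBRi, with 5 when only genes tested in cluster 10 entered, an alternative chosen after seeing the data, and from 99 to 24 in G1 cells, 35 with only those genes and 34 to 154 with a library left out for PI3Ki, where DESeq2 gave 86 calls with 5.81% positive in place of 32.3%.

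Without the replicate block the PI3Ki calls in cluster 10 went from 104 to 65 with the calls on AURKA, BAAT, CD44, IL1B, PRSS35, TFPI2, TMEM158, UBE2C and VGF lost (in TGFB1 those on CCN2, IL1B and SNED1), and those in non-primed cells from 2665 to 1189 for TGFB1, from 503 to 47 for TGFBRi and from 2170 to 570 for PI3Ki. Leaving out a library gave 988 to 3722, 206 to 1247 and 632 to 3286 calls in non-primed cells. At 50 CPM, 201 genes were over 2-fold higher and 94 lower in Control. With the 50000 highest-ranked peaks 11 of 46 genes had more accessible starts (10.6% of all) in place of 23 of 73, and 36 to 50 of 75 to 77 with a replicate left out, when the share of all starts was 17.9% to 40.4%.

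Signs turned for 5 mitotic genes in TGFB1 with G1 cells alone (AURKA 0.73, MKI67 0.011, NUSAP1 0.40, TOP2A 0.99, UBE2C 1.72) and for AURKA in PI3Ki (0.25). They turned for genes that had not passed: IL24 in TGFB1 (0.065 with DESeq2, -7.91 to 1.65 with a library left out) and MMP1 (-1.63 to 1.72), and in TGFBRi NGFR (-0.021 with equal cells, -0.038 to 0.53), SRGN (-0.093 with equal cells, -0.059 in G1, -0.17 to 0.24), PRSS35 (0.032 without the 5%, -0.47 to 0.024), IL24 (-0.94 to 1.59), MMP1 (-1.24 to 0.013), SCG2 (-0.032 to 0.57), STC1 (-0.54 to 0.78) and TMEM158 (-0.49 to 0.071), and SCG2 in PI3Ki (-0.95 to 0.10). Among the differences they turned for IL24 in TGFB1 (-12.85 to 2.44), for NGFR (-0.047 with DESeq2, -0.80 in G1, -1.37 to 0.96), MMP1 (-1.29 to 0.31), SCG2 (-0.35 to 0.26) and STC1 (-0.33 to 0.062) in TGFBRi, and for IL11 (-4.31 to 0.77), NGFR (-1.82 to 0.54) and SCG2 (-0.34 to 0.015) in PI3Ki. The block changed no other call on a named gene in cluster 10, and upper quartile scaling changed none. A library of 22 to 29 cells limits the TGFB1 r1 and PI3Ki r1 values.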
